A study of Mus musculus with 6 samples.

Results

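Fn1 encodes fibronectin, a large glycoprotein that cells secrete and assemble into fibrils outside the cell, and 71 of the 99162 Jun peaks mapped in rib chondrocytes of newborn mice lay around this gene. The 71 are all peaks of the deposited list whose midpoint lies in the 210 kb window chr1:71560001-71770000 of the mouse build mm9. The window was chosen by the positions of the peaks, already known from this list, so that its high count is a description and has no test. The gene, on the minus strand, was taken as the 68 kb that begin at about 71632001. Its 5′ bound is therefore the higher coordinate, and distances into the gene are counted from there. Next to Fn1 lie Atic on the 3′ side and the long noncoding RNA Apol7d on the 5′ side, by the gene order of the RefSeq table for GRCm38.p6, from which no position was taken.

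The deposited list names no sample, and its peaks were assigned to the only ChIP-seq library for Jun. That library was prepared beside 1 library of input DNA. Both were made from untreated rib chondrocytes, released from cartilage by enzyme digestion, of wild-type ICR mice at postnatal day 1. How many animals gave the cells is not stated in the labels. In addition, 4 RNA-seq libraries were made from sorted chondrocytes of Swiss Webster Col10a1mCherry mice (2 from postnatal day 1, 1 from postnatal day 3 and 1 from E18.5), which were not analysed here, so that no level of Fn1 RNA stands beside the peaks.

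Jun is a subunit of AP-1, a family of dimeric transcription factors that bind short DNA sites in promoters and distant enhancers. Fibronectin binds collagen, heparin and integrin receptors at the cell surface. It is abundant where mesenchymal cells condense before cartilage forms, and chondrocytes of formed cartilage make splice forms of their own. Each row of the list gives the chromosome, start and end of a peak and nothing else. A peak has no height, score or depth, its list place is its row number counted from 1, and no label explains the row order.

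The Fn1 gene body held most of these peaks. Of the 71 peaks, 53 (74.6%) lay in its 68 kb, 9 in the 72 kb beyond its 3′ bound and 9 in the 70 kb beyond its 5′ bound. The gene body thus had 0.779 peaks per kb (exact Poisson 95% interval 0.584 to 1.02), or 1 peak per 1283 bp. The 3′ flank had 0.125 per kb (0.0572 to 0.237) and the 5′ flank 0.129 per kb (0.0588 to 0.244), and the autosomes as a whole 0.0407 per kb. The density of the gene body was 6.15 times that of both flanks combined (exact conditional 95% interval 3.54 to 11.2). These intervals cover counting error only, and they are too narrow where peaks are grouped. Because the window was placed around this dense gene with the peaks known, the ratio and its interval are a description and test nothing. When peaks separated by at most 1000 bp were merged, the gene body held 18 regions and the ratio was 2.51.

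**Figure D1:**
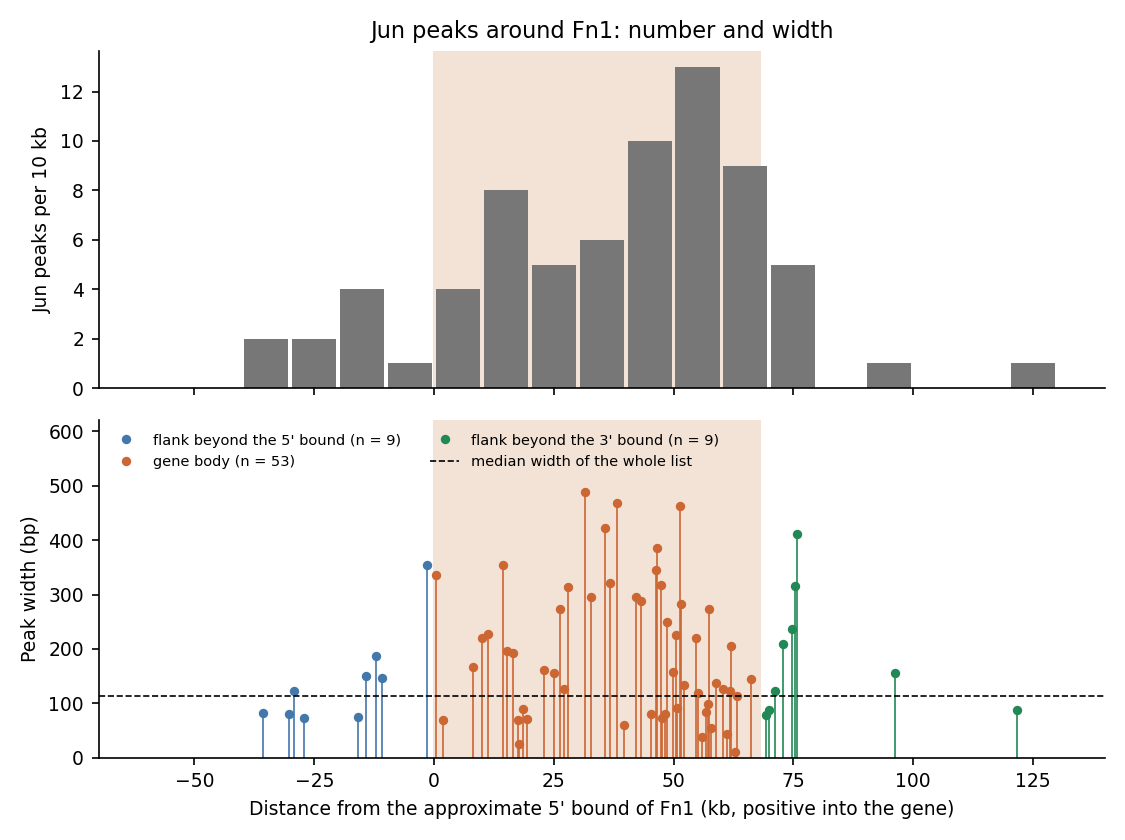
Upper plot: number of Jun peaks in each 10 kb of distance from the approximate 5′ bound of Fn1, positive into the gene. Lower plot: width in bp of each of the 71 peaks at its midpoint, with the shaded band marking the 68 kb gene body and the dashed line the median width of the whole list, 114 bp. The fullest 10 kb, with 13 peaks, lie 50 to 60 kb into the gene, and the peaks that reach 400 bp lie in the gene body, apart from 1 in the 3′ flank.

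Few autosomal tiles held as many peaks. Among 11419 tiles of 210 kb, 12 (0.105%) held at least 71 peaks, against a median of 5 peaks per tile and a highest count of 143. Among 35288 tiles of 68 kb, 6 (0.017%) held at least the 53 peaks of the gene body, the median tile holding 1 and the fullest 80. The tiles that contain Fn1 were among those counted. The Fn1 intervals were placed with the peaks known, whereas the tiles follow a fixed grid that can cut dense stretches apart. The shares are therefore low in part by construction and have no test. Other tile starts, every 10 kb, were tried for the 210 kb tiles only and gave 0.124%. The share of 210 kb tiles as full as the Fn1 window was 0.482% with peaks within 1000 bp merged, 0.0351% in the first 50% of the list and 0.736% in its last 50%.

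**Figure D2:**
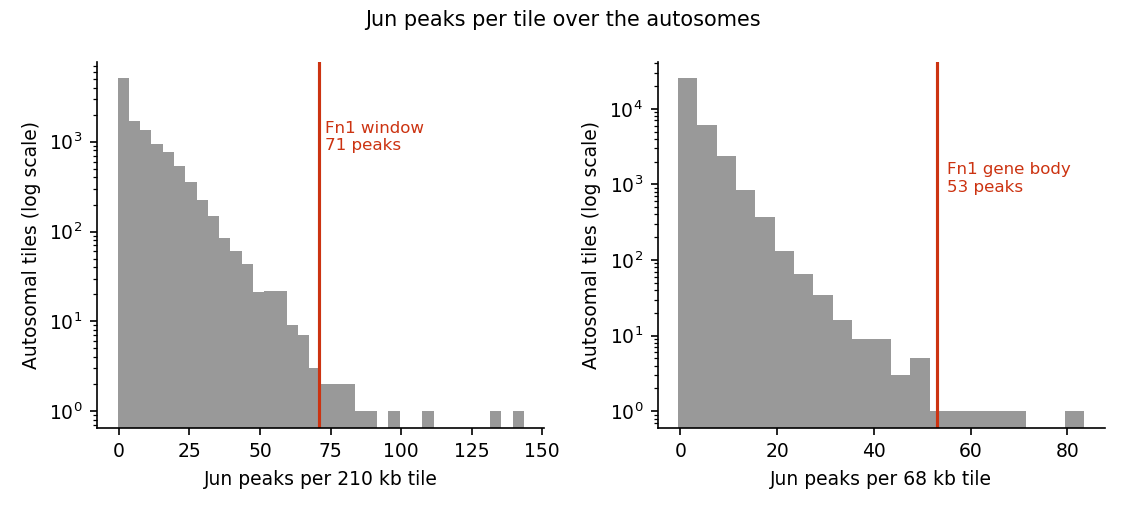
Number of autosomal tiles (log scale) by the number of Jun peaks they hold, for tiles as long as the Fn1 window (left, 210 kb) and as long as the gene body (right, 68 kb). Red lines mark the 71 peaks of the window and the 53 of the gene body, which lie at the far right of both distributions.

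Counted singly over the whole list, peaks within the gene were more numerous towards the 3′ end. The gene was divided into 4 stretches of 17 kb. The stretch next to the 5′ bound held 8 peaks, the following one 11, the third 16 and the one next to the 3′ bound 18. Of 2 parts of 34 kb, the 3′ part held 34 peaks and the 5′ part 19, a ratio of 1.79 (95% interval 0.992 to 3.32, for counting error only). The division was made after seeing the peaks, which are grouped, so this ratio is a description. In steps of 10 kb from the 5′ bound the counts were 4, 8, 5, 6, 10 and 13, and the last 8 kb of the gene held 7 peaks, so that the count did not rise at every step. The 3′ excess was not present in every count. In the first 50% of the list the 3′ part held 17 peaks and the 5′ part 18. In the last 50% the 3′ part held 17 and the 5′ part 1, so that the excess lay in the later rows. With peaks within 1000 bp merged, fewer regions lay in the 3′ part than in the 5′ part. Merging joins more peaks where midpoints stand closer, and their median distance was 749 bp in the 3′ part and 1292 bp in the 5′ part. The merged count thus follows in part from the spacing and cannot test the excess. The peaks covered 15.0% of the gene body, 18.7% of its 3′ part and 11.3% of its 5′ part. They covered 2.37% of the 3′ flank and 1.82% of the 5′ flank.

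Peaks stood at both ends of the gene. The peak nearest to the 5′ bound, chr1:71699361-71699696, was 336 bp wide and had its midpoint 472 bp inside the gene, at place 4996 of the list. Outside that bound, the nearest peak was 355 bp wide (chr1:71701201-71701555), with its midpoint 1378 bp away and the much later place 61932. From there 9.52 kb passed before the next peak outside the gene. Inside the gene, the stretch of 6.23 kb that ends at a peak 8.13 kb from the bound held no midpoint. At the 3′ end, a 144 bp peak (chr1:71633700-71633843, place 19749) lay 1771 bp inside the bound and a 79 bp peak (chr1:71630585-71630663, place 1108) 1377 bp outside it. Since the bounds of the gene are approximate, a peak this close to one of them could fall on either side of it. Whether any of the 53 peaks lies in an exon, an intron or a UTR was not determined, because exon positions of mm9 were not used here.

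The 3′ flank was occupied near the gene and nearly empty farther out. In the 5′ flank 1 peak lay in the 10 kb next to the gene, and the others reached out to 35.7 kb from it. Beyond the 3′ bound, 7 of the 9 peaks lay between 71623958 and 71630663. The other two stood alone, an 88 bp peak at chr1:71578358-71578445 and a 155 bp peak at chr1:71603765-71603919, with 25.4 kb and 20.3 kb to the next midpoint. Beyond the 5′ bound, 5 peaks lay between 71701201 and 71715992, and after a step of 11.1 kb the last 4 lay between 71727057 and 71735765. No midpoint followed in the remaining 34.3 kb of the window. The nearest peaks outside the window were 1 of 73 bp at its higher end (chr1:71770513-71770585, place 7887), whose midpoint missed the limit by 549 bp, and 1 of 151 bp at its lower end (chr1:71494231-71494381, place 97213), 65.7 kb away.

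The peaks inside the gene were closely spaced. Over the 70 neighbouring pairs of the window the median distance between midpoints was 1147 bp, and within the gene body it was 926 bp (quartiles 525 and 1388 bp), against 5590 bp over all neighbouring autosomal peaks. Of the 70 distances, 31 (44.3%) were under 1000 bp, compared with 23.3% on the autosomes, 33 were 1000 bp or more but under 5000 bp, and 6 were 5000 bp or more. The median distance was 749 bp in the 3′ part of the gene and 1292 bp in its 5′ part. In the 242 other groups of 20 or more peaks, described below, the median distance had a median of 1318 bp, against 1085 bp in the group at Fn1. Close spacing follows in part from the choice of a dense window and supports nothing further.

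Chains of peaks whose midpoints were at most 1000 bp apart were longest in the 3′ part. The fullest joined 7 peaks over 3281 bp (chr1:71642152-71645432), and 3 others joined 6 peaks each, at chr1:71636651-71639797, chr1:71647743-71650176 and chr1:71651204-71653856. In the 5′ part the fullest was a chain of 5 peaks at chr1:71680648-71683572. Of the 71 peaks, 31 were in no chain. Both overlapping pairs of the locus lay in the 6-peak chains, chr1:71648239-71648520 with chr1:71648473-71648935, and chr1:71653250-71653635 with chr1:71653511-71653856.

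Wide peaks were frequent at Fn1. Of the 71 peaks, 28 (39.4%) measured 200 bp or more, whereas 14% of the whole list did so, and 5 measured 400 bp or more, against 3.1% of the list. Peaks under 50 bp numbered 4 of 71, a share close to the 6.3% of the list. All 4 lay in the gene body, which held 53 of the 71 peaks. The median width of the 71 peaks was 155 bp, with quartiles of 86 and 278 bp. For all peaks of the list it was 114 bp, with quartiles of 88 and 151 bp, so that the lower quartiles lay close together and the upper ones far apart. Width played no part in choosing the window, but peak density did. In the 242 other groups of 20 or more peaks, described below, a median of 20% measured 200 bp or more, above the 14% of the list. The peaks come from 1 library and are not replicates, so the difference between Fn1 and the list has no test.

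**Figure D3:**
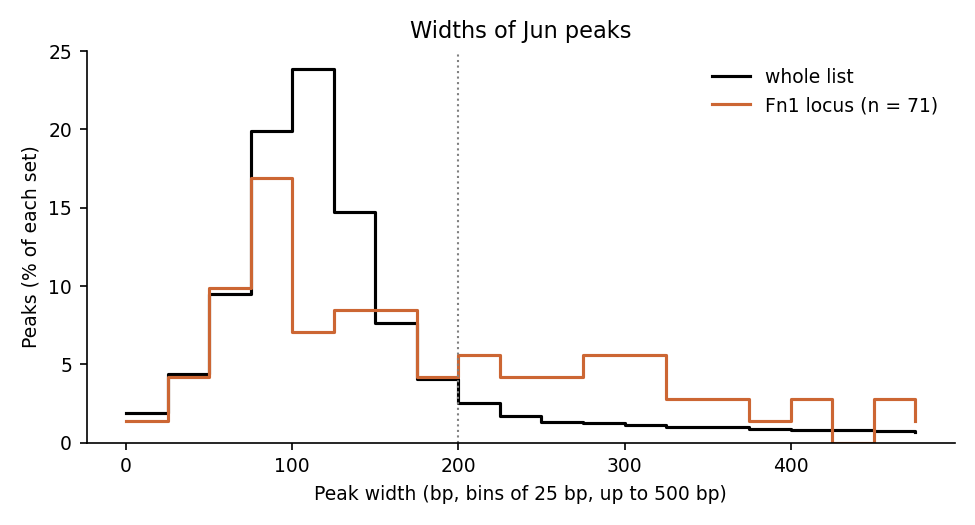
Share of peaks (%) in each 25 bp step of width, for the whole list (black) and for the 71 peaks of the Fn1 locus (orange); the dotted line marks 200 bp. The Fn1 locus is highest in the step from 75 bp and the list in the step from 100 bp, and the Fn1 locus has the larger share in most steps above 200 bp; the 11 peaks of the list that reach 500 bp are not drawn.

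Wide peaks took nearly the same share of both 34 kb parts of the gene, 15 of 34 (44.1%) in the 3′ part and 8 of 19 (42.1%) in the 5′ part. In the gene body as a whole 23 of 53 peaks (43.4%) measured 200 bp or more, in the 3′ flank 4 of 9, and in the 5′ flank 1 of 9. In the 17 kb stretches from the 5′ bound, where the counts are small, they were 4 of 8, 4 of 11, 10 of 16 and 5 of 18. The third of these stretches, chr1:71649001-71666000, thus had the largest share (62.5%) and the largest median width, 269 bp, and the stretch at the 3′ end, which had the most peaks, had the smallest median width of the 4, 125 bp.

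The widest peak of the locus measured 488 bp (chr1:71668289-71668776, place 9330) and lay 31.5 kb into the gene. The second and the fourth, of 468 bp (chr1:71661620-71662087, place 22245) and 423 bp (chr1:71664071-71664493, place 25434), lay on its 3′ side, with midpoints 38.1 and 35.7 kb into the gene. All 3 stood alone, with no other midpoint within 1000 bp. The third, of 463 bp (chr1:71648473-71648935, place 47956), belonged to a 6-peak chain, and the fifth, of 412 bp (chr1:71623958-71624369, place 96002), lay in the 3′ flank. The narrowest peak measured 10 bp (chr1:71637227-71637236, place 42032), and the other 3 narrow peaks measured 26, 38 and 44 bp.

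The peaks of the 5′ part of the gene stood early in the list and those of the 3′ part later. In the 5′ part the median place was 16836, or 17.0% of the way down the list, and 18 of the 19 peaks were in the first 50% of the list. In the 3′ part the median place was 48829 (49.2%), with 17 of 34 peaks in each 50%. By 17 kb stretches from the 5′ bound the median places were 11.6%, 24.2%, 48.0% and 49.2%, and the numbers of peaks in the last 50% of the list were 0 of 8, 1 of 11, 8 of 16 and 9 of 18. The exception in the 5′ part was a 314 bp peak at place 74101 (chr1:71671823-71672136). The 3′ flank held both very early and very late places, with 5 of its 9 peaks in the first 25% of the list and 2 in the last 10%. In the 5′ flank 4 of 9 peaks were in the first 50%.

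**Figure D4:**
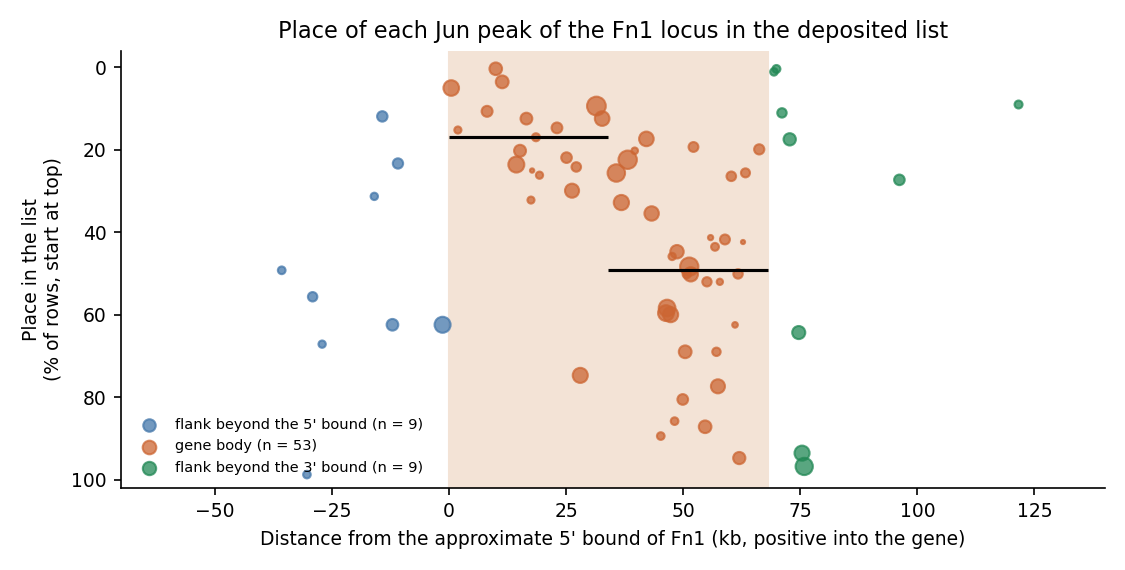
Place of each of the 71 peaks in the deposited list (% of rows, start of the list at the top) against distance from the approximate 5′ bound of Fn1 in kb; point area follows peak width, colours give the segment and black lines the medians of each 34 kb part of the gene. In the 5′ part 18 of 19 peaks are in the first 50% of the list, and in the 3′ part 17 of 34 are.

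Over the whole window the median place was 32.8%, and 7 of the 71 peaks were in the first 10% of the list, 45 in the first 50% and 4 in the last 10%. The earliest was a 220 bp peak at place 367 (chr1:71689913-71690132), 9.98 kb into the gene. Next came a close pair outside the 3′ bound, an 87 bp peak at place 414 (chr1:71630051-71630137) and the 79 bp peak at place 1108, with midpoints 530 bp apart. These 3 of 71 peaks were the ones among the first 2000 rows, which make up 2.02% of the list. Place 3516 belonged to a 227 bp peak (chr1:71688533-71688759) 1377 bp from the one at place 367, and the fifth was the peak at the 5′ bound. The latest, at place 97959, was an 80 bp peak in the 5′ flank (chr1:71730297-71730376).

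Widths were more spread late in the list as a whole: peaks under 50 bp numbered 2421 in its first 50% and 3826 in its last 50%, and the median widths were 109 and 121 bp. Wide peaks were therefore also counted within each part. Among the 45 Fn1 peaks of the first 50% of the list, 15 (33.3%) measured 200 bp or more, against 9.10% of all peaks there. Among the 26 of the last 50%, 13 (50.0%) did so, against 19.0%. The share at Fn1 was thus the larger one in both parts.

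Fn1 was one of several dense groups of Jun peaks. Joining peaks whose midpoints were at most 10 kb apart placed 65 of the 71 peaks in 1 group of 92.0 kb (chr1:71623958-71715992) and left 6 outside it. Of the 242 other groups of 20 or more peaks, 9 (3.72%) held at least as many. A median of 20% of the peaks in those groups measured 200 bp or more, against 43.1% (28 of 65) in the Fn1 group, and 9 of the 242 (3.72%) had at least the Fn1 share. The median place in the Fn1 group was 32.2%, and 24 of the 242 (9.92%) had one as early or earlier.

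The 3 fullest groups of the list differed from Fn1 in the same measures. The group on chromosome 4 from 62842462 had 141 peaks, of which 36.9% measured 200 bp or more, and a median place of 56.8%. For the group on chromosome 1 from 92598601, with 136 peaks, the share was 29.4% and the median place 54.9%. For that on chromosome 7 from 124521889, with 128 peaks, they were 26.6% and 62.9%. Their median distances between midpoints were 815, 782 and 763 bp, shorter than the 1085 bp of the Fn1 group. None of these differences was tested, since 1 library gives no replicate of a group.

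The shift in list place along Fn1 was large, but not rare among all groups of 20 or more peaks. Between the lower-coordinate part of the Fn1 group, on the 3′ side, and its higher-coordinate part, each covering 50% of its span, the median places were 45502 (43 peaks) and 22440 (22 peaks), a difference of 23063 rows. The median difference among the other 242 groups was 13145 rows, and 64 of them (26.4%) differed by at least as much as the Fn1 group. Most of these groups held fewer peaks than the Fn1 group, and medians of fewer peaks vary more. Only 9 held at least as many peaks. In those 9 the difference ran from 468 rows, in the fullest group on chromosome 4, to 22980 rows, in a group on chromosome 10. All 9 differences were below that of Fn1, the last one narrowly, and this was not tested.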

How the data were processed

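The authors deposited 1 list of Jun peaks with 3 columns (chromosome, start, end) and no header, on build mm9 per the submitters' processing notes. The name of the list carries the mark FDR1, which no label or header explains, so no threshold is stated. Not given in the sources used here are the aligner, peak caller, use of the input library and read depth. Per the labels' protocols, chromatin of 20000000 cells was fixed in 1% formaldehyde for 10 minutes and sheared to fragments of 100 to 600 bp. The list was assigned to the only Jun library among the 6 samples. Python 3.11.15 with numpy 2.4.6 and pandas 2.3.3 was used, and positions are counted from 1. Intervals are exact (scipy 1.17.1), and the counting was tested on simulated data. Tiles ran from the first to the last midpoint of each autosome. The window, the gene bounds and the measures were chosen with earlier results of these data known. The peaks named are the 5 widest, the 5 earliest in the list, the narrowest and the latest, those at each bound, the 3 longest distances and the fullest chains; further ones were named after their values were seen. Dividing the gene into 2 and 4 equal parts and the comparison of groups were also chosen after seeing the data. Motifs and the genes of fibronectin's receptors and partners were not analysed here, since no mm9 sequence or gene positions were used.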

Additional observations from a re-analysis of the deposited data

How the results depend on the processing

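Under 9 alternatives, 26 of 41 recomputed values stayed within the 95% interval of the reported one or, for counts, within 1.5 times of it. They include all values with peaks of at least 50 bp, with membership by any overlap, with gene bounds moved by 5 kb, and with other tile starts or occupied tiles. The other 15 came from 3 alternatives. Merging peaks within 1000 bp gave 33 regions in the window and 18 in the gene body, a density ratio of 2.51, a median spacing of 3394 bp, a median place (earliest member) of 20.3% and 0.482% of tiles as full. The first 50% of the list gave 45 and 35 peaks, a spacing of 1576 bp, a median place of 22.4% and 0.0351% of tiles. The last 50% gave 26 and 18 peaks, a median place of 65.75% and 0.736% of tiles. Fewer intervals enter all 3 by construction. The direction in which the median place moved was also fixed in advance, by keeping 50% of the rows or the earliest member of a region. The gene body remained denser than the flanks in all 3 alternatives. No paired analysis was possible because the list comes from 1 library. Without read depth, a gap in the list cannot be taken as unbound DNA.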
